A study of Mus musculus with 12 samples.

Results

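The immunoglobulin heavy chain variable segments (Ighv) of mouse colon were taken as all Ensembl features of the deposited files whose gene symbol starts with Ighv. There were 34 such features among the 991 listed in any library, and all are described here. The series holds 12 colon RNA libraries, with 4 groups of 3. Control mice received water (ddH2O). DSS mice received 2.5% dextran sulfate sodium, which damages the colonic epithelium and causes colitis, in 3 rounds of 5 days, each followed by 5 days of water. BXD_L and BXD_H mice went through the same DSS course and were also given Banxia Xiexin Decoction, a herbal mixture, at a daily 7.60 g/kg in BXD_L and 15.2 g/kg in BXD_H, so there was no group given the decoction without DSS. The labels give no strain, age or sex, nor do they say whether the libraries of a group are from different mice, so the p-values below reflect a spread between libraries that may be technical.

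An antibody heavy chain is encoded by a V, a D and a J segment that a developing B cell joins into 1 exon, followed by the exons of a constant gene such as Igha for IgA or the Ighg genes for IgG. Each B cell and its descendants use a single productive V segment, and the promoter of that segment then drives the transcript, so the RNA of a V segment reports the B cells and, above all, the antibody-secreting plasma cells that chose it. The V exon holds the first and second complementarity determining regions, loops that touch antigen. The healthy colon is rich in IgA plasma cells, and IgG plasma cells are known to increase in inflamed mucosa.

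The 6 Control and DSS libraries listed the same 912 features and the same 26 Ighv segments. The BXD_L libraries listed 8 features, of which 4 were Ighv, and the BXD_H libraries listed 95, of which 8 were Ighv. These lists are a selection, probably made on the same libraries, so a call in them is no independent evidence of a difference, and a segment that a group does not list has no value here for that group. Values are FPKM, that is, fragments divided by gene length in kilobases and by the library total. The spacing of low values gave totals of 14.4 to 19.2 M fragments for the Control and DSS libraries and, from few genes, 12.4 to 18.2 M for BXD_H. The BXD_L lists were too short to give one. The free-text description of Control replicate 3 names the DSS course and that of DSS replicate 3 names the BXD_L treatment, against their titles. Groups followed the titles, and the main results are also given without both libraries. In bulk tissue, fewer cells of a type and less RNA per cell cannot be told apart.

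The segments resemble each other closely, which bears on every level below. Each V exon was 301 to 317 bases long, and its nearest relative among the 183 annotated Ighv V exons compared differed at a median of 14.5 positions (range 4 to 61). Within a family, named by the first number of the symbol, listed segments were 82.3 to 97.7% identical, and segments of different families 51.6 to 81.3%. The 3 pairs below are shown because the members of each pair differ at few positions and yet had unlike levels or were listed for different groups. Each line runs from base 12 of the V exon to its end, 5′ to 3′ on the minus strand of chromosome 12 (GRCm38, the assembly also called mm10), and capitals mark the bases at which the members of the pair differ.
Ighv9-3: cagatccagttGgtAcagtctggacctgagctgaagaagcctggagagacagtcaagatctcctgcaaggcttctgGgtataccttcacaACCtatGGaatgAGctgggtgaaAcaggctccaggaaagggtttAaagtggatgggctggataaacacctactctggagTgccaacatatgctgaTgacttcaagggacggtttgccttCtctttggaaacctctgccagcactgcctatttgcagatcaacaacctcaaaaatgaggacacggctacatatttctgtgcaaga
Ighv9-2: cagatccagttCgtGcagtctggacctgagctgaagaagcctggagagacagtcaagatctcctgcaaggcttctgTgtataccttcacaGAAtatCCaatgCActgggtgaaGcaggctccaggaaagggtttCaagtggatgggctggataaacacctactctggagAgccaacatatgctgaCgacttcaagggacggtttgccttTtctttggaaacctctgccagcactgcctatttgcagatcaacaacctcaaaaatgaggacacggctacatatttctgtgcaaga
Ighv5-9-1: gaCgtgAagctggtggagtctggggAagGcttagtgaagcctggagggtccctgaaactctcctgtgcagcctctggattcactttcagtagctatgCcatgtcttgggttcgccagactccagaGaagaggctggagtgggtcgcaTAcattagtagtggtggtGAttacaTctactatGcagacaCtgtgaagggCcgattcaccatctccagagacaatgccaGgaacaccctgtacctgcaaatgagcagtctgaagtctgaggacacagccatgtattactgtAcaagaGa
Ighv5-6: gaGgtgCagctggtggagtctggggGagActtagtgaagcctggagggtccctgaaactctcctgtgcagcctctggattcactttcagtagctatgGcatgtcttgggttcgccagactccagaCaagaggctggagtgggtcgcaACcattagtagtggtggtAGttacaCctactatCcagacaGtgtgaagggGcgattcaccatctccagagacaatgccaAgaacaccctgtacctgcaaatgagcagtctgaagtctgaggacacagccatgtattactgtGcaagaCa
Ighv1-4: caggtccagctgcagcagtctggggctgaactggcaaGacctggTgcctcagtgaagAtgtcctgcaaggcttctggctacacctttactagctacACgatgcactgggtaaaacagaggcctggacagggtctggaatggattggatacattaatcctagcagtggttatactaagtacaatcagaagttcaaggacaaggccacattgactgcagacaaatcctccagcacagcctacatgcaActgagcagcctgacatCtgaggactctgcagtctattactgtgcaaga
Ighv1-7: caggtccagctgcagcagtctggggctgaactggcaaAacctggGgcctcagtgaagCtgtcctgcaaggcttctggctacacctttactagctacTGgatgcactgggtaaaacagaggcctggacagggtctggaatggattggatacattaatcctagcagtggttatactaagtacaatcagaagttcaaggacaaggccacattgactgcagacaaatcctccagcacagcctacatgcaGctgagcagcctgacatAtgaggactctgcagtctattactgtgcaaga

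The stretches shown lie at chr12:114140692-114140985 (Ighv9-3), chr12:114109001-114109294 (Ighv9-2), chr12:113736111-113736406 (Ighv5-9-1), chr12:113625506-113625801 (Ighv5-6), chr12:114487136-114487429 (Ighv1-4) and chr12:114538495-114538788 (Ighv1-7). The Ighv9 pair differed at 17 of the 305 positions of the whole exon, 15 of them in the stretch shown. Ighv9-3 stood at 155 times the level of Ighv9-2 in DSS and 56.5 times in Control (ratios of mean FPKM). The Control ratio is uncertain, as Ighv9-2 had 1, 8 and 0 fragments in the Control libraries. The Ighv5 pair differed at 17 of 307 positions, all of them shown, and the mean of Ighv5-9-1 was 9.14 times that of Ighv5-6 in Control and 0.182 times in DSS. The Ighv1 pair differed at 7 of 305 positions, all shown, with Ighv1-4 listed for Control and DSS and Ighv1-7 for BXD_H. The differing bases were not spread evenly. In the Ighv9 pair many of them lay close together, and each pair also held long identical runs. In windows of 50 bases, a median of 21.8% of a listed V exon's windows also occurred in another annotated Ighv gene. No window was shared for 5 segments (Ighv5-16, Ighv7-1, Ighv7-4, Ighv13-2 and Ighv1-9), and over 50% were for 5 others (Ighv2-2, Ighv1-50, Ighv1-52, Ighv1-53 and Ighv1-77). The closest relative was Ighv1-61, itself unlisted, which differed from Ighv1-52 at 4 of 305 positions. The sources used here do not say how reads that fit several segments were assigned, so the level of a single segment with close relatives is uncertain.

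All 34 segments were annotated as V genes rather than pseudogenes, out of 113 such genes at the locus, and none of the 70 annotated V pseudogenes was listed. The Ighv1 family, the largest in the mouse, had 16 of its 53 genes listed. The other listed families were Ighv5 with 4 of 10, Ighv2 with 4 of 9, Ighv14 with 3 of 4, Ighv7 and Ighv9 with 2 of 4 each, Ighv8 with 1 of 9, Ighv3 with 1 of 6 and the single Ighv13 gene. For Control and DSS the list held 13 Ighv1, 3 Ighv2, 3 Ighv14, 2 Ighv5, 2 Ighv9 and 1 each of Ighv7, Ighv8 and Ighv13. The decoction libraries alone added 3 Ighv1, 2 Ighv5 and 1 each of Ighv2, Ighv3 and Ighv7.

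The comparison of DSS with Control asks how the colitis course changed the use of V segments in the colon. Of the 26 segments, 25 were higher in DSS and 1, Ighv5-9-1, was lower (limma on log2(FPKM + 1), two-sided, adjusted p under 0.05), though the change of Ighv1-52 was −0.10 with libraries scaled to equal Igkc. All 26 passed the low-value filter. Ighv9-2, Ighv14-1 and Ighv1-77, with mean Control levels below 1 FPKM, passed it mainly through the DSS libraries, where they were high. Their calls are therefore not independent of the filter. Of all 576 features tested, 79.2% were called higher and 20.0% lower, so calling alone does not set these segments apart. With each library centred on the median of its listed features, 17 were higher and 1 lower, beside 19.8% higher and 20.5% lower of all features tested. The median log2 change was 2.58 over the 26 segments (range −3.31 to 5.02) and 0.96 over all features tested, and 25 of 26 segments exceeded the latter. Other immunoglobulin sets were alike in this, with a median of 2.68 over 25 tested kappa V segments and 2.61 over 5 heavy chain constant genes, all of them above 0.96. On this scale, with 1 FPKM added before the logarithm, the change of a low segment comes out too small. Ighv segments were 5 of the 10 largest rises among all tested features and 16 of the 50 largest. The 3 DSS libraries all lay above the 3 Control libraries in 24 of 26 segments, beside 77.4% of all 912 listed features, and 0 segments lay wholly below, beside 17.8%. Ighv5-9-1 and Ighv14-1 overlapped. Without the 2 libraries of conflicting description, 21 segments were higher and 1 lower (limma, beside 73.3% and 12.6% of all features), with a median log2 change of 2.66.

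**Figure D1:**
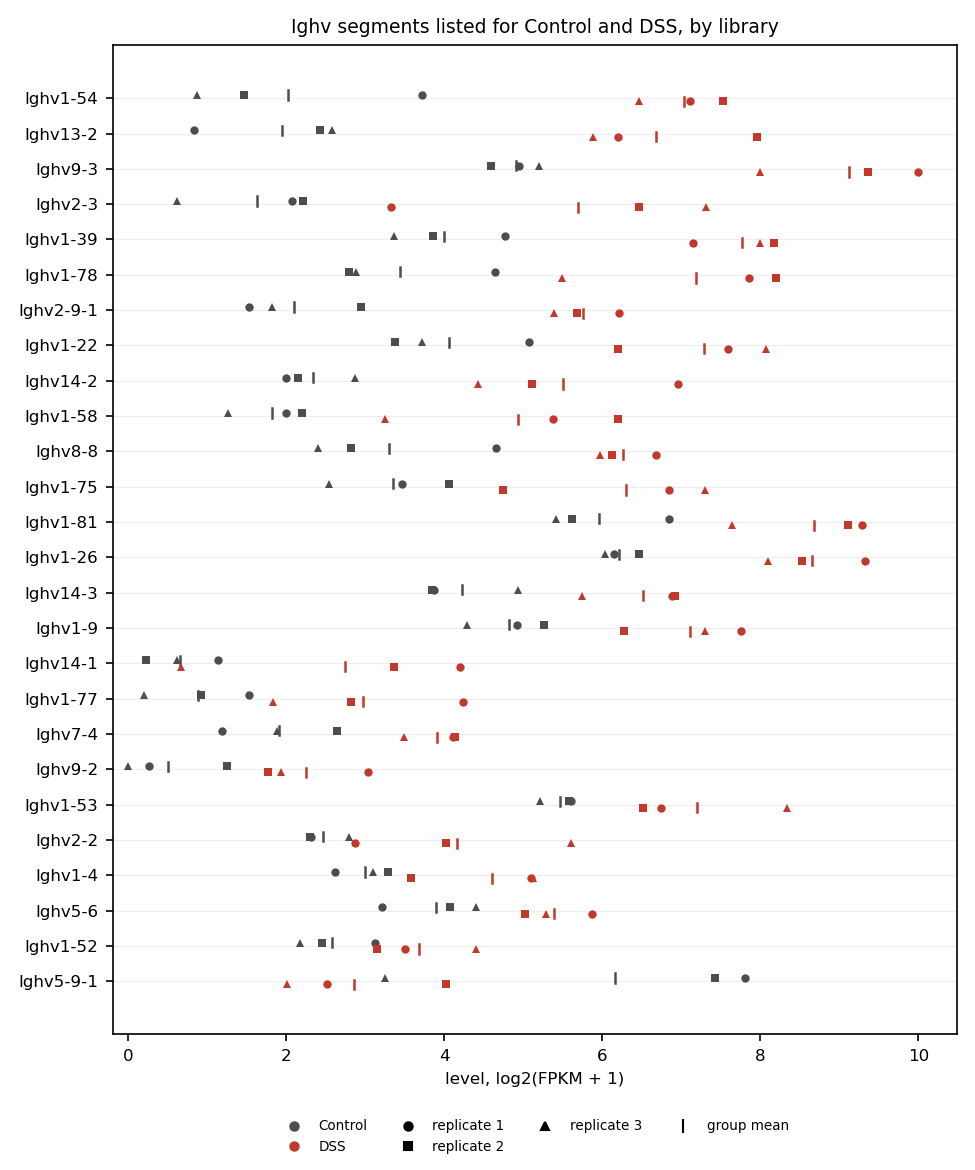
Level of each of the 26 Ighv segments listed for Control and DSS, as log2(FPKM + 1) on the horizontal axis, with 1 point per library (shape gives the replicate, colour the group) and a bar at each group mean. Segments are ordered by their log2 change, from Ighv1-54 (5.02) at the top to Ighv5-9-1 (−3.31) at the bottom, and the groups overlap in Ighv5-9-1 and Ighv14-1.

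Ighv1-54 had the largest rise of all 576 features tested on the log2(FPKM + 1) scale with all libraries. It stood at 12.2, 1.75 and 0.82 FPKM in Control replicates 1, 2 and 3 (66, 11 and 5 fragments) and at 137, 183 and 86.9 FPKM in the DSS replicates. Every DSS library was far above every Control library, and Control replicate 1 was the high one of its group. Group means ± SD were 4.91 ± 6.30 and 136 ± 48.0 FPKM (n = 3 libraries per group here and below), and the limma log2 change was 5.02 (SE 0.62, adjusted p = 0.000729). By the ratio of means Ighv13-2 (37.4-fold) and Ighv2-3 (34.5-fold) exceeded it (27.6-fold), and without the 2 libraries of conflicting description its log2 change was 4.73, below the 5.45 of Ighv13-2. The V exon of Ighv1-54 lies at chr12:115193675-115193979, and its nearest annotated relative, the unlisted Ighv1-63, differed at 22 of 305 positions.

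Ighv13-2, the only annotated V gene of its family that is no pseudogene, had the next largest log2 change. It stood at 0.77, 4.35 and 4.98 FPKM in Control (4, 26 and 29 fragments) and at 72.3, 247 and 58.0 FPKM in DSS. The groups were far apart, and DSS replicate 2 was the high library. The log2 change was 4.74 (SE 0.68, limma adjusted p = 0.00112), 37.4-fold in mean FPKM. No 50-base window of this V exon occurred in another Ighv gene.

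Ighv9-3 had the highest mean of the 26 segments. It stood at 29.9, 23.1 and 35.6 FPKM in Control and at 1016, 656 and 255 FPKM in DSS, or 5496, 3828 and 1715 fragments. Control libraries were alike and DSS libraries spread 3.98-fold, with no overlap. The mean rose 21.7-fold to 642 ± 381 FPKM in DSS from 29.5 ± 6.28 FPKM (4.20 on the log2 scale, SE 0.51, adjusted p = 0.001 in limma). Ighv9-2, its partner in the sequences above, stood at 0.20, 1.37 and 0 FPKM in Control and 7.21, 2.40 and 2.82 FPKM in DSS. These are 1, 8 and 0 fragments against 39, 14 and 19, and a count of 0 in Control replicate 3 allows up to 0.528 FPKM (3 fragments, counting error only).

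Ighv2-3 varied most between DSS libraries among the large rises. It stood at 3.20, 3.63 and 0.53 FPKM in Control and at 8.97, 87.0 and 158 FPKM in DSS, a limma log2 change of 4.07 (SE 0.92, adjusted p = 0.00493). DSS replicate 1 was closer to Control than to the other DSS libraries, though still above every Control library. Ighv2-9-1 of the same family was far more even, at 1.88, 6.67 and 2.51 FPKM in Control and 72.8, 50.2 and 40.7 FPKM in DSS (log2 change 3.66, SE 0.42, limma adjusted p = 0.000729). Ighv2-2, the listed segment nearest to the D segments, stood at 3.95, 3.92 and 5.95 FPKM and at 6.27, 15.2 and 47.6 FPKM, with DSS replicate 1 barely above Control replicate 3. Its log2 change of 1.69 (limma adjusted p = 0.0209) was not past the threshold without Control replicate 2 (adjusted p = 0.0631) or without DSS replicate 2 (0.0538).

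The Ighv1 family made up the larger part of the signal. All 13 of its listed segments rose, beside 79.2% of all 576 features tested. Their log2 changes were 1.10 to 5.02 (median 2.72), and Ighv1-52 alone turned to −0.10 under Igkc scaling. Ighv1-39 stood at 26.1, 13.5 and 9.31 FPKM in Control and at 140.5, 287 and 253 FPKM in DSS (log2 change 3.77, SE 0.46, limma adjusted p = 0.001). Ighv1-78 stood at 23.85, 5.91 and 6.39 FPKM and at 230.2, 293 and 43.85 FPKM (3.74, SE 0.76). Ighv1-22 stood at 32.7, 9.41 and 12.1 FPKM and at 191, 72.1 and 267 FPKM (3.23, SE 0.59). None of the 3 overlapped between groups, and the lowest DSS library was replicate 1 for Ighv1-39, replicate 3 for Ighv1-78 and replicate 2 for Ighv1-22.

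Other Ighv1 segments began at a higher level and rose less. Ighv1-81 stood at 114, 48.1 and 41.6 FPKM in Control and at 622, 553 and 199 FPKM in DSS (log2 change 2.72, limma adjusted p = 0.00403). Ighv1-26 stood at 70.1, 87.4 and 64.3 FPKM and at 638, 368 and 273 FPKM (2.43, SE 0.40). These were the next 2 segments by mean level in DSS after Ighv9-3, and their DSS libraries fell in the same order, replicate 1 highest and replicate 3 lowest. Ighv1-9 stood at 29.3, 37.45 and 18.4 FPKM and at 215, 76.2 and 156 FPKM (2.28). Ighv1-53 stood at 47.5, 46.9 and 36.0 FPKM and at 106, 90.3 and 324 FPKM (1.74, SE 0.50). DSS replicate 3 was the high library of Ighv1-53. Without the 2 libraries of conflicting description, of which it is one, the log2 change was 1.04 and did not pass (limma adjusted p = 0.0614).

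The remaining Ighv1 segments were lower in level. Ighv1-58 (log2 change 3.12), Ighv1-75 (2.94), Ighv1-77 (2.08), Ighv1-4 (1.60) and Ighv1-52 (1.10) reached means of 8.85 to 98.8 FPKM in DSS from 0.973 to 10.2 FPKM in Control. Ighv1-52 had the smallest rise, from 5.23 ± 2.21 to 12.8 ± 6.44 FPKM (limma adjusted p = 0.0203). It did not pass without Control replicate 2 (adjusted p = 0.0636), Control replicate 3 (0.0759) or DSS replicate 3 (0.0604). Without the 2 libraries of conflicting description its change was 0.54 (adjusted p = 0.192). Ighv1-4 did not pass without the 2 libraries of conflicting description (1.39, adjusted p = 0.056). Ighv1-77 rested on 11, 6 and 1 fragments in Control.

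Outside Ighv1, Ighv2 and Ighv9, the Ighv14 family rose in 3 of 3 segments, again beside 79.2% of all 576 features tested. Ighv14-2 (log2 change 3.16) and Ighv14-3 (2.30) had means of 59.1 ± 55.9 and 96.5 ± 38.3 FPKM in DSS against 4.24 ± 1.82 and 18.9 ± 9.33 FPKM in Control. Ighv14-1 stood at 1.19, 0.17 and 0.53 FPKM in Control and 17.4, 9.25 and 0.59 FPKM in DSS, so DSS replicate 3, with 4 fragments, lay within the Control range. Its log2 change of 2.08 (limma adjusted p = 0.0245) did not pass without Control replicate 2 (adjusted p = 0.0798) or Control replicate 3 (0.05005). Only Control replicate 1 and DSS replicates 1 and 2 reached 1 FPKM. Without any 1 of these libraries Ighv14-1 fell below the filter and was not tested. Ighv8-8 rose from 11.5 ± 11.1 to 77.3 ± 21.3 FPKM (2.96). Ighv7-4, at 1.27, 5.22 and 2.68 FPKM in Control and 16.2, 16.5 and 10.3 FPKM in DSS, did not overlap between groups (2.01, SE 0.86, limma adjusted p = 0.0402). Its call was lost without Control replicate 1 (adjusted p = 0.0996), Control replicate 3 (0.0731), DSS replicate 1 (0.0551), DSS replicate 2 (0.11) or DSS replicate 3 (0.0535). The fit takes its spread from all libraries that list the segment, BXD_H included (134, 444 and 20.6 FPKM). The SE of 0.86 is therefore also that of BXD_H against DSS. In a fit of Control and DSS alone the call held. On these libraries it also held with centring (SE 0.34, limma adjusted p = 0.0187) but not with Igkc scaling (0.21).

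Ighv5-9-1 was the single segment that fell, and it had been the leading segment of Control. It stood at 223, 172 and 8.51 FPKM in Control (1327, 1181 and 57 fragments) and at 4.71, 15.3 and 3.03 FPKM in DSS (30, 105 and 24 fragments). Control replicate 3 was low, below DSS replicate 2, so the groups overlapped and the fall rests on Control replicates 1 and 2. The log2 change was −3.31 (SE 1.10, limma adjusted p = 0.017), from 134 ± 112 to 7.68 ± 6.65 FPKM. It did not pass without Control replicate 2 (−2.68, adjusted p = 0.0676) or without DSS replicate 3 (−2.89, adjusted p = 0.0561). Without the 2 libraries of conflicting description, which removes Control replicate 3, it was −4.35. Ighv5-6, which differs from it at the 17 capitalised positions above, stood at 8.27, 15.8 and 20.1 FPKM in Control and at 57.3, 31.3 and 38.0 FPKM in DSS, without overlap (log2 change 1.495, SE 0.40, limma adjusted p = 0.00705). The call of Ighv5-6 was lost with centring (0.85, limma adjusted p = 0.124) and with Igkc scaling (0.18, adjusted p = 0.92).

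Summed over the 26 segments, the Ighv level was 699, 542 and 328 FPKM in the Control libraries and 4117, 3397 and 2573 FPKM in the DSS libraries. Every DSS library was several times above every Control library. The mean went from 523 ± 186 to 3362 ± 772 FPKM, a ratio of 6.43, and 6.06 without the 2 libraries of conflicting description. Without Ighv5-9-1, a choice made after seeing the data, the means were 388 ± 79.4 and 3355 ± 771 FPKM and the ratio 8.64. No p is given for sums and shares, since the members are a selected list.

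The make-up of that sum differed from library to library. Ighv5-9-1 led in Control replicates 1 and 2 with 32.0% and 31.7% of the summed FPKM, and Ighv1-26 led in Control replicate 3 with 19.6%. Ighv9-3 led in DSS replicates 1 and 2 with 24.7% and 19.3%, and Ighv1-53 led in DSS replicate 3 with 12.6%. Both groups thus had 1 library whose leading segment was not that of the other 2, and in both it was a library of conflicting description. The share of the leading segment was 27.7 ± 7.06% in Control and 18.9 ± 6.06% in DSS, and 22.6 ± 2.15% and 18.9 ± 6.07% without Ighv5-9-1. The effective number of segments (the inverse of the summed squared shares, which is 26 when all segments are equal) was 7.72 ± 2.08 in Control and 10.2 ± 2.33 in DSS, and 9.16 ± 0.45 and 10.1 ± 2.33 without Ighv5-9-1. The leading share was thus no larger in DSS than in Control within the spread of the libraries.

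**Figure D2:**
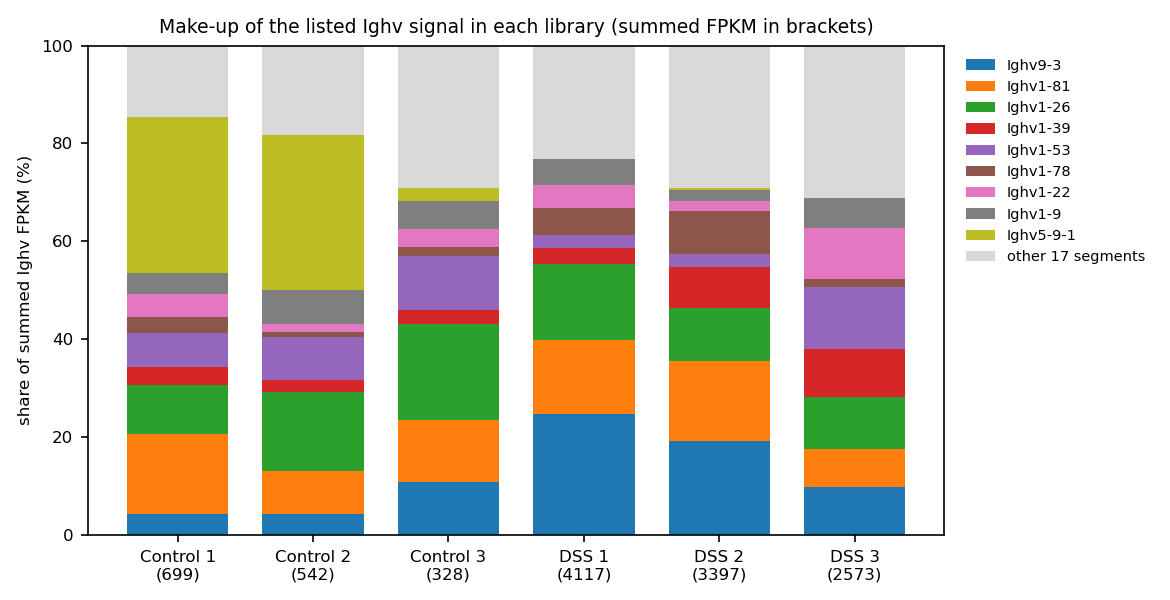
Share of the summed Ighv FPKM (vertical axis, percent) taken by the 8 segments of highest mean level, by Ighv5-9-1 and by the other 17 segments in each Control and DSS library, with the summed FPKM in brackets. Ighv5-9-1 takes 32.0 and 31.7% of Control replicates 1 and 2, and Ighv9-3 takes 24.7 and 19.3% of DSS replicates 1 and 2.

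By family, Ighv1 held 56.7 ± 5.52% of the summed FPKM in Control and 63.9 ± 6.07% in DSS with overlapping libraries, while its mean level was 7.29-fold higher. Ighv9 went from 6.56 ± 3.73 to 18.1 ± 7.50%, with DSS replicate 3 (10.0%) below Control replicate 3 (10.9%). Ighv5 went from 33.2, 34.6 and 8.72% in the Control libraries to 1.51, 1.37 and 1.59% in the DSS libraries, with no overlap. Of its 2 listed segments, Ighv5-9-1 held 32.0, 31.7 and 2.59% in Control and 0.114, 0.450 and 0.118% in DSS. The share of Ighv5-6 overlapped between the groups, and its level rose. Ighv2 went from 2.22 ± 0.804 to 5.40 ± 3.804% and Ighv14 from 5.60 ± 4.80 to 4.64 ± 1.71%. For single segments, shares overlapped between the groups in 21 of 26. The share was higher in all DSS libraries for Ighv2-9-1, Ighv13-2 and Ighv1-54 and lower in all of them for Ighv5-9-1 and Ighv1-52. Ighv1-54, for example, made up 1.74, 0.323 and 0.25% of the sum in Control and 3.33, 5.39 and 3.38% in DSS.

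By median, V segment levels varied more between the 3 DSS libraries than those of the immunoglobulin constant genes. The highest DSS library exceeded the lowest by a median of 3.35-fold over the 26 segments (range 1.61 to 29.4), against 2.89-fold over 25 tested kappa V segments, 1.52-fold over 6 immunoglobulin constant genes and 1.67-fold over the 550 tested features that are not Ighv. The ratio passed 5 in 9 segments and 10 in 2, Ighv14-1 (29.4) and Ighv2-3 (17.6). Control libraries had a like pattern, with 2.81-fold for the segments and 1.52-fold for the constant genes. The part of level and depth in these ratios was not tested. Of the 25 rising segments, 11 were highest in DSS replicate 1, 7 in DSS replicate 2 and 7 in DSS replicate 3. Among the 7 highest in replicate 3 were Ighv2-2, Ighv2-3, Ighv1-22, Ighv1-53 and Ighv1-75, and among the 7 highest in replicate 2 were Ighv13-2, Ighv1-39, Ighv1-54 and Ighv1-78. Of all 456 features that rose, by comparison, 130 were highest in DSS replicate 1, 294 in replicate 2 and 32 in replicate 3, and of the 6 constant genes 5 were highest in replicate 1. As a description over the 26 segments, which share each library's depth, Pearson correlations of log2 levels were 0.70 to 0.82 between DSS libraries, 0.73 to 0.85 between Control libraries and 0.41 to 0.67 between a Control and a DSS library. Without Ighv5-9-1 the last range was 0.59 to 0.78, beside 0.67 to 0.82 within DSS.

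Constant genes give the scale against which the V segments moved. Igkc, which encodes the constant part of the kappa light chain, stood at 4500, 3772 and 4200 FPKM in Control and 13008, 10988 and 8729 FPKM in DSS, 2.62-fold in means. Igha stood at 1537, 1041 and 1140 FPKM and at 3613, 2776 and 2445 FPKM, 2.38-fold. The IgG genes rose further, Ighg1 5.06-fold, Ighg2b 6.00-fold, Ighg3 10.5-fold and Ighg2c 15.9-fold. The summed V segments, at 6.43-fold, thus lay above Igkc and Igha and among the IgG genes. The ratio of summed Ighv FPKM to Igkc was 0.155, 0.144 and 0.0781 in Control and 0.316, 0.309 and 0.295 in DSS, a 2.44-fold higher mean, and the ratio to Igha was 0.421 ± 0.120 and 1.14 ± 0.0859. The summed heavy constant genes over Igkc were 0.314 ± 0.0359 in Control and 0.318 ± 0.0239 in DSS. The lists hold only selected V segments, so these ratios cover the 26 listed and say nothing of unlisted segments. The IgG genes made up 3.18, 10.7 and 3.52% of the listed heavy constant FPKM in Control and 18.8, 14.2 and 11.9% in DSS. With every library scaled to equal Igkc, 13 segments were higher and 1 lower in DSS (limma, beside 6.70% higher and 24.1% lower of 582 features), 24 of 26 changes were above 0, and the median was 1.34 for the segments and −0.09 for all features. The 13 included Ighv1-54, Ighv13-2, Ighv9-3, Ighv1-39, Ighv2-9-1, Ighv1-26 and Ighv1-81.

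The listed segments spanned 2332 kb of the locus, from Ighv2-2 to Ighv1-81, with the small coordinates nearest to the D segments. The 12 segments nearer to the D segments than the first listed Ighv1 gene had 11 rises and 1 fall, with a median log2 change of 2.19. From Ighv1-4 outward, 14 of 14 rose, with a median of 2.83, and all of these but Ighv1-52 (−0.10) were above 0 under Igkc scaling. Both counts are to be read against the 79.2% higher and 20.0% lower of all 576 features. Both stretches held small and large changes, and neighbours could differ: Ighv1-52, Ighv1-53 and Ighv1-54, at 1557, 1570 and 1605 kb from Ighv2-2, changed by 1.10, 1.74 and 5.02. Ighv5-9-1 (−3.31) and Ighv2-9-1 (3.66) lay at 148 and 182 kb.

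**Figure D3:**
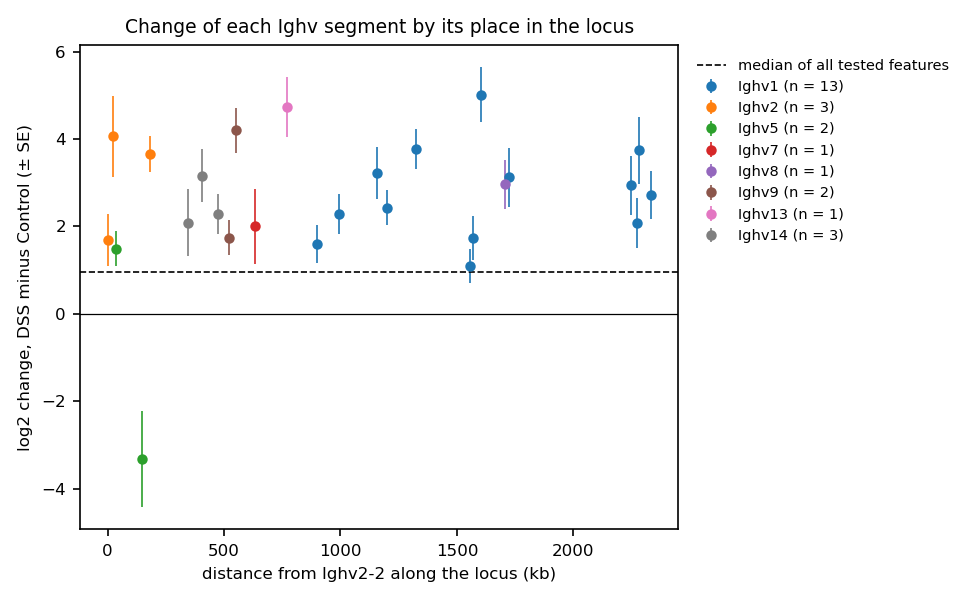
Log2 change (DSS minus Control, with its standard error) of the 26 segments against their distance from Ighv2-2 in kb, coloured by family, with a dashed line at the median of all tested features (0.96). All segments but Ighv5-9-1 lie above that line, from the D-proximal end to Ighv1-81 at 2332 kb; under Igkc scaling Ighv1-52 was at −0.10.

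Markers of the cells that make these transcripts were covered in part. None of 12 B cell markers was listed, so their levels were not analysed here. Of 17 plasma cell genes 4 were listed and all 4 rose: Igha, Igkc, Prdm1, the transcription factor of plasma cell differentiation (1.23), and Pou2f2, which encodes an octamer-binding factor of B cells (0.88). Prdm1 stood at 2.25, 2.11 and 1.37 FPKM in Control and at 4.42, 6.92 and 6.17 FPKM in DSS (limma adjusted p = 0.00356). Summed over the 4, the level was 4816 to 6040 FPKM in Control and 11183 to 16628 FPKM in DSS. Igha and Igkc made up nearly all of that sum. All tested T cell (6 of 11), macrophage (4 of 10), neutrophil (4 of 9) and fibroblast genes (6 of 8) also rose, and both tested genes of the 10 for colon epithelium, Car4 and Slc26a3, fell. With 79.2% of all tested features called higher and 20.0% lower, rises in all members of lists this short, the plasma cell list included, are near the background. The listed epithelial genes summed to 742 to 1086 FPKM in Control and 109 to 457 FPKM in DSS. The part of cell make-up in the Ighv levels was not tested. Of 17 B cell homing genes, Ccr7, a chemokine receptor (0.90), and Ltb, the gene of lymphotoxin beta (0.99), were tested and rose. Of 13 genes of IgA transport and class switching, Il5ra alone was listed, and it did not pass the filter, at 0.12 to 0.20 FPKM in Control and 0.74 to 1.85 FPKM in DSS. Of 9 Fc receptor genes 3 were tested, and Fcgr1, Fcgr4 and Fcer1g rose.

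The comparisons of the decoction groups with DSS ask which segments differed at each dose, and they share the DSS libraries with the comparison above. The low dose listed Ighv2-9, Ighv3-5, Ighv13-2 and Ighv1-54, and the high dose listed Ighv5-16, Ighv5-17, Ighv2-9, Ighv7-1, Ighv7-4, Ighv1-7, Ighv1-12 and Ighv1-50. Only 3 of these 11 segments were also listed for DSS and could be compared with it. In BXD_L, Ighv13-2 stood at 7.43, 2.35 and 14.0 FPKM, below all DSS libraries (72.3, 247 and 58.0 FPKM), a limma log2 change of −3.77 (SE 0.68, adjusted p = 0.000307). Ighv1-54 stood at 34.4, 45.1 and 45.7 FPKM, also below all DSS libraries (137, 183 and 86.9 FPKM) and above all Control libraries, a change of −1.62 (SE 0.62, limma adjusted p = 0.0244). All features tested between BXD_L and DSS, 100% of 3, were called lower, so both calls match the background of that short list. The call of Ighv1-54 was lost without BXD_L replicate 1 (adjusted p = 0.0657) or DSS replicate 2 (0.0902), and both calls held without DSS replicate 3, whose description names BXD_L.

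In BXD_H, Ighv7-4 stood at 134, 444 and 20.6 FPKM, or 1010, 3533 and 112 fragments, against 16.2, 16.5 and 10.3 FPKM in DSS. All BXD_H libraries lay above DSS, but replicate 3 only just. The log2 change was 2.86 (SE 0.86, limma adjusted p = 0.0084), 13.9-fold in means, where 70.6% of 17 tested features were called higher and 23.5% lower. Single libraries moved it: the change was 1.85 without BXD_H replicate 2 and 4.03 without BXD_H replicate 3, past the threshold in both. Its V exon shared no 50-base window with another Ighv gene. Ighg1, the single heavy constant gene listed there, stood at 111.5, 27.2 and 41.1 FPKM against 12.1, 7.79 and 9.08 FPKM in DSS (2.28, limma adjusted p = 0.00233).

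The other 8 segments have no DSS value here and are given as levels. Ighv5-17 stood at 158, 475 and 112 FPKM in the BXD_H libraries and Ighv5-16 at 112, 274 and 77.3 FPKM, and both were highest in replicate 2, as was Ighv7-4. Ighv1-12 stood at 15.2, 239 and 238 FPKM, with replicate 1 far below the others. Ighv1-7 stood at 241, 164 and 78.4 FPKM, highest in replicate 1. The low segments Ighv7-1 (22.1, 6.36 and 10.7 FPKM), Ighv1-50 (24.7, 14.5 and 15.1 FPKM) and Ighv2-9 (17.8, 16.2 and 2.67 FPKM) completed the high-dose list. Ighv2-9 was the single segment listed at both doses, and its BXD_L values of 9.25, 1.67 and 7.01 FPKM overlapped those of BXD_H. Ighv3-5 stood at 15.1, 14.9 and 30.7 FPKM in BXD_L. A different segment led the listed Ighv signal in each BXD_H library: Ighv1-7 with 33.2% in replicate 1, Ighv5-17 with 29.1% in replicate 2 and Ighv1-12 with 42.9% in replicate 3. In BXD_L, Ighv1-54 led in all 3 with 52.0, 70.5 and 47.0%. As the lists hold different segments, these shares are not comparable between groups.

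**Figure D4:**
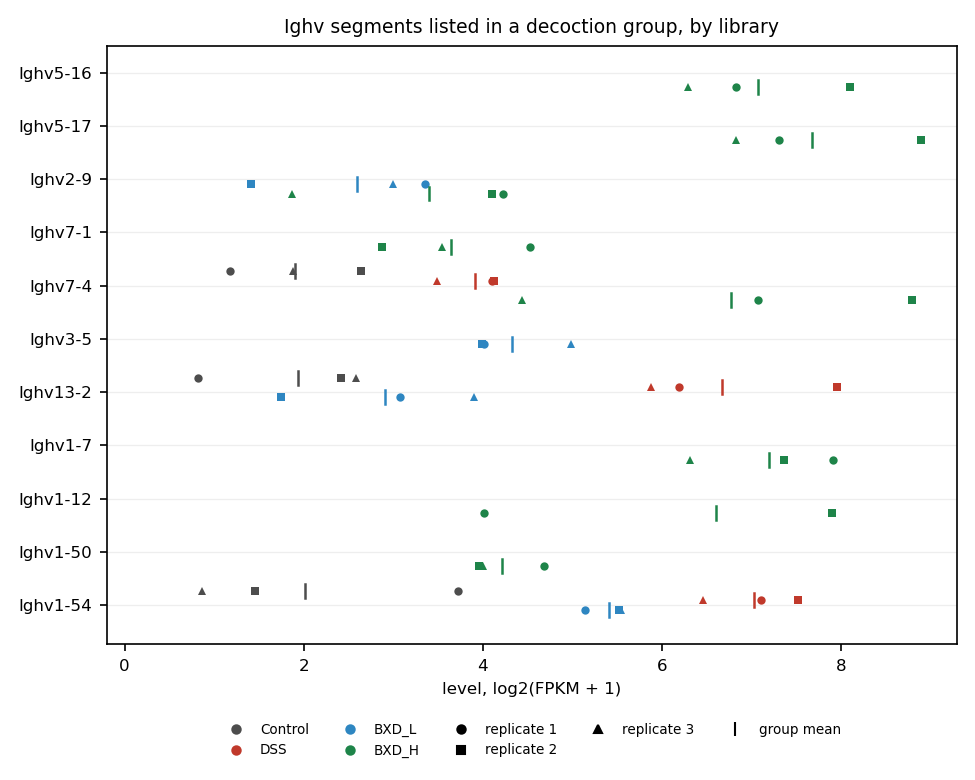
Level of the 11 Ighv segments listed in a decoction group, as log2(FPKM + 1), with 1 point per library of each group that lists the segment and a bar at the group mean. Ighv7-4, Ighv13-2 and Ighv1-54 are the segments with Control and DSS values as well, and for Ighv1-12 the points of BXD_H replicates 2 and 3 coincide at 239 and 238 FPKM.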

How the data were processed

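RNA of mouse colon was measured in 12 libraries. The authors deposited FPKM, rounded to 2 decimals, in 1 file per library, per the file headers. FPKM correct for gene length and library total, not for composition. The submitters' processing notes name bcl2fastq, FastQC, fastp and mm10. Not given in the sources used here are the aligner, the counting program, the handling of strand, the annotation release and how features were selected for the lists. Of 991 features, 981 matched GENCODE release M21 (GRCm38) by identifier, which gave positions, V exons and lengths; the sequences come from its transcripts. The members, gene lists and tests were chosen with earlier results of these data known.

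Library totals were found by scanning 5 to 30 M fragments for the value at which FPKM times exon length of genes under 1200 bases gave whole fragments. The tolerance followed the rounding of FPKM, grew with exon length and stayed below 0.2 fragments. Multiples of the true total also give whole numbers, so a total at or close to the lowest with a share near the best was chosen. At the chosen total 89.3 to 94.2% of 69 to 103 genes per Control or DSS library were whole, against at most 38.1% with shuffled lengths, and 100% of 7 to 9 genes per BXD_H library, against 71.4%. Fragments per segment assume that exon length.

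Log2(FPKM + 1) was fitted with limma 3.58.1 (R 4.3.3), trended, with 1 mean per group over 12 libraries, each feature on the libraries that list it. Features with at least 1 FPKM in 3 or more libraries were tested, two-sided, with Benjamini-Hochberg adjustment over all features of a comparison and a threshold of 0.05. Groups followed titles. No 2 libraries within Control or within DSS had over 25 equal values, so none of these was counted as a copy. The decoction libraries were not compared in this way. The deposited FPKM are no counts, so count models were not used. The fit was also run on simulated Control and DSS values alone. These hold neither the decoction libraries nor the selection of the lists, so that run is no check of the calls. V exons were aligned with Biopython 1.88. Values per library are given for the 10 segments of highest mean, the 8 largest rises and the fall, segments listed for a decoction group and those leading a library; others named were chosen after their values were seen. Alternatives covered the pseudocount (0.1), the filter, scaling, fits of the compared groups alone, a replicate block, each library left out, and the 2 libraries of conflicting description. Promoter and recombination motifs were not analysed here.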

Additional observations from a re-analysis of the deposited data

How the results depend on the processing

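The number of Ighv segments higher in DSS was 25 of 26, beside 456 of all 576 features tested. It was 22 to 23 of the 25 or 26 tested when 1 library was left out, beside 369 to 445 of 500 to 565 features. Without the 2 libraries of conflicting description it was 21 (beside 349 of 476), and with centring on the median of listed features 17 (113 of 572). With libraries scaled to equal Igkc it was 13 (39 of 582). When libraries were grouped by their description text it was 1, where 4 of all 576 features were higher and 4 lower. The cause of that drop was not tested. Centring took the median change of all features from 0.96 to 0.31 and Igkc scaling to −0.09. The number lower was 1, beside 115 of all 576 features, and 0 to 1 with 1 library left out, beside 77 to 108 of 500 to 565. It was 0 without Control replicate 2 or without DSS replicate 3. The number past the threshold between a decoction group and DSS was 3, and 2 with a pseudocount of 0.1. The ratio of summed Ighv FPKM was 6.43, ranged from 5.42 to 7.73 with 1 library left out, and was 8.64 without Ighv5-9-1 (chosen after seeing the data). The ratio of that sum to Igkc was 2.44 times higher in DSS. It ranged from 2.05 to 2.77 with 1 library left out, and was 2.09 without the 2 libraries of conflicting description, 2.12 without the segment of highest mean and 3.28 without Ighv5-9-1. Of 243 values under alternatives of the 17 segment results that the naming rule takes, 215 kept direction and call, 28 lost the call and 0 changed direction. Ighv1-52, outside that rule, turned from 1.10 to −0.10 under Igkc scaling. Ighv13-2 exceeded Ighv1-54 in log2 change without Control replicate 2 (4.98 and 4.74) and without Control replicate 3 (5.06 and 4.44). Without DSS replicate 1, Ighv2-3 (5.26) exceeded Ighv1-54 (4.976), and Ighv13-2 (4.978) was nearly equal to it. Same-numbered Control and DSS libraries did not deviate together (correlations −0.0519, 0.0211 and 0.0794 over 576 features), so the numbers were not taken as pairs. A fit with the replicate block gave 25 segments higher and 1 lower, beside 455 and 113 of all 576 features. Depth limits Ighv9-2, Ighv14-1 and Ighv1-77, which had 11 or fewer fragments in every Control library.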
